A study of Mus musculus with 4 samples.

Results

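Igfn1 and 9 other genes of the muscle sarcomere were followed in quadriceps of WT and Mef2dα2 Eko mice. The 10 genes are Igfn1, its partners Ky and Flnc, Myot of the Z-disc, the Xin repeat genes Xirp1 and Xirp2, the myomesin genes Myom1, Myom2 and Myom3, and Ttn. Igfn1 was chosen by its lower counts in the Eko mice of this same data set. The other 9 were chosen as partners of Igfn1 or as Z-disc, Xin, M-band or titin genes, with the results of this comparison known. The genotype differences of the 10 genes are therefore given as a description, with standard errors and without p-values. Each standard error is the size of the log2 fold change divided by the square root of F in edgeR's quasi-likelihood test. That test shares information on spread across genes, so the standard error restates the test and is not the spread between the mice. All 10 were found in the deposited table of 51826 gene rows, each on 1 row, and all 10 passed the filter on low counts, as did 16120 genes in all.

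Eko mice lacked the alternative α2 exon of Mef2d, a transcription factor gene, after CRISPR-Cas9 deletion in the germline, so the exon was missing from every tissue and from development onwards. The C57BL6/J mice were male, sedentary and about 20 weeks old, with 2 WT and 2 Eko mice and 1 polyA RNA library per mouse. The study describes WT and Eko mice as littermates, and the sources used here do not say which mice shared a litter or which founder line was sequenced. Total counts ranged from 72626757 to 85176059 per library, so a count of 3 corresponded to 0.0348 to 0.0419 CPM (counts scaled to library size), a floor that covers counting error only. The gene-level counts of Mef2d, 19687 and 18393 in WT and 21695 and 17206 in Eko, sum over its alternative exons and cannot check the genotype labels. All 6 skeletal muscle markers were abundant, the lowest being Mylpf at a mean of 2435 CPM. In whole muscle, fewer fibres expressing a gene and less RNA per fibre cannot be told apart.

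The sarcomere is bounded by Z-discs, which anchor the thin actin filaments, and is crossed at its centre by the M-band, which ties the thick myosin filaments together. Titin runs from the Z-disc to the M-band. Filamin C and myotilin cross-link actin at the Z-disc, KY and Igfn1 bind to filamin C or to each other there, and Xin proteins bind actin and filamin C at sites where fibres are under strain or repair. MEF2 factors bind a short AT-rich element in the control regions of many muscle genes, and E-boxes are the elements bound by MyoD and its relatives.

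The sequence upstream of the start site was read from RefSeq promoters of GRCm38.p6, which held 7 of the 10 genes. Each promoter window spanned 300 bases, from 250 before to 50 after the start. The MEF2 consensus, which reads the same on both strands, was matched in the windows of Xirp2, Myom3 and Ttn and in 3.19% of all 32851 windows. No match lay in the windows of Igfn1, Ky, Myom1 or Flnc, the last of which has 2 windows. The windows of Myom1 (chr17:71019307-71019606) and Ky (chr9:102505888-102506187) lie inside the genes as annotated, which start at 71002633 and 102505750. Their matches therefore concern internal starts and not the sequence upstream of the whole gene. The E-box CANNTG, also the same on both strands, was found in 72.3% of all windows and in all of the 7 genes except Flnc. Stretches of 4 promoters are shown because they hold the MEF2 consensus in Xirp2, Myom3 and Ttn, or because Igfn1 is the gene with the largest fold change of the 10. Capitals mark the E-boxes of Igfn1 at 199, 193 and 56 bases before its start, and the MEF2 consensus of the other 3 at 74, 35 and 166 bases before theirs. E-boxes of the other 3 are not marked, and that of Ttn at 138 bases before its start lies in the stretch shown. The stretches are chr1:136006343-136006542 on the minus strand for Igfn1, chr2:67445883-67445982 on the plus strand for Xirp2, chr4:135759635-135759714 on the plus strand for Myom3 and chr2:76982659-76982758 on the minus strand for Ttn, written 5′ to 3′ along the gene.
Igfn1: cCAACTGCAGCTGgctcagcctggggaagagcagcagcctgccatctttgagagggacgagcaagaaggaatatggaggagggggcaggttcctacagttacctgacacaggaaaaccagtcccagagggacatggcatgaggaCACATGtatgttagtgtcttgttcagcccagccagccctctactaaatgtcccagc
Xirp2: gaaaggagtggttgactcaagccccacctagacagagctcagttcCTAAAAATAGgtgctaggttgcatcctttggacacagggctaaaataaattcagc
Myom3: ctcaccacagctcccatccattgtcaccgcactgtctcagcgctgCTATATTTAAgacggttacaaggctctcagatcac
Ttn: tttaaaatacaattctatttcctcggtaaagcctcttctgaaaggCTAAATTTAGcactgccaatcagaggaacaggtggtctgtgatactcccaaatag
A match is a run of letters and not a measured binding site, and the absence of the MEF2 consensus holds for the Igfn1 window alone, not for the rest of the gene. The CArG box, the element of serum response factor, was matched in Myom1 alone of the 7 genes, 99 bases before its internal start, and in 1.63% of all windows.

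Igfn1 encodes a protein of immunoglobulin and fibronectin domains found at the Z-disc. It lies on chromosome 1 of GRCm38 (minus strand, 135953578 to 136006342), and the longest coding transcript of GENCODE M21 has 27 exons and codes for 2849 residues. Igfn1 counts corresponded to 90.3 and 45.04 CPM in the WT mice and to 12.2 and 14.1 CPM in the Eko mice. The Eko mice lay close together and both lay below the lower WT mouse. The means were 67.7 ± 32.0 CPM in WT and 13.2 ± 1.33 CPM in Eko (SD, n = 2). Eko thus stood at 19.5% of WT on average. On the log2 scale the difference was -2.36 ± 0.30 (standard error), and it moved between -2.76 without WT replicate 2 and -1.77 without WT replicate 1. Igfn1 was 1 of 10 genes with an adjusted p under 0.05 by the quasi-likelihood test of edgeR (Benjamini-Hochberg adjusted), against 0.416% of all genes tested and 0.310% with lower counts in Eko. Nothing is read from that count, since the gene was chosen by this contrast. The count was 0 with a minimum of 1 CPM in 2 libraries, and 2, with Myom3 added, without a filter on low counts or without Eko replicate 1.

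**Figure D1:**
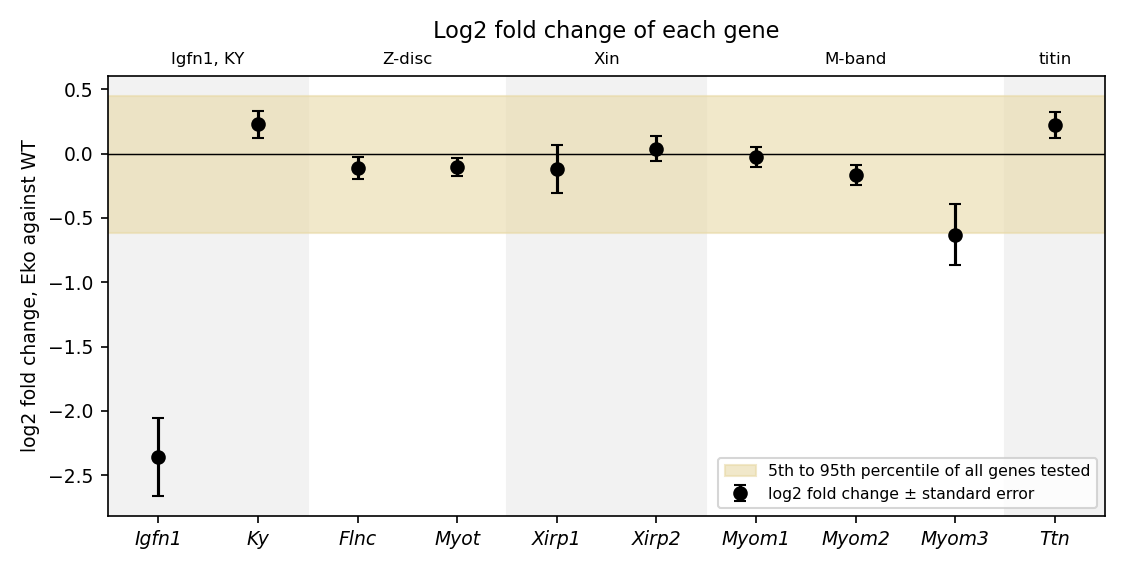
Log2 fold change of each gene in Eko against WT quadriceps (y axis, edgeR), with bars of 1 standard error and the band from -0.62 to 0.45 that holds the 5th to 95th percentile of all 16120 genes tested. The bars were derived from the edgeR test statistic and are not the spread between mice. Igfn1 lies at -2.36 and Myom3 at -0.63, below the band, and the other 8 genes lie within it.

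KY is a protein with a transglutaminase-like domain that is needed to keep muscle fibres intact, and Ky lies on chromosome 9 (plus strand, 102505750 to 102546239). Ky was at 369 and 327 CPM in WT and at 445 and 370 CPM in Eko. The lower Eko mouse was level with the higher WT mouse to within 1 CPM, and the groups touched without crossing. The log2 fold change of Ky was 0.23 ± 0.11, opposite in sign to that of Igfn1. Read against Ky per kilobase of exon in the same mouse, the Igfn1 level was 0.160 and 0.0900 in WT and 0.0180 and 0.0250 in Eko. The Eko mean of this ratio was 0.172 times the WT mean.

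Flnc encodes filamin C and lies on chromosome 6 (plus strand, 29433256 to 29461883). Flnc was at 661 and 583 CPM in WT and at 575.5 and 575.3 CPM in Eko. The Eko mice were almost equal and lay just under the lower WT mouse, with a log2 fold change of -0.11 ± 0.08. Myot encodes myotilin, which also binds α-actinin, and lies on chromosome 18 (plus strand, 44334074 to 44355724). Myot was at 919 and 886 CPM in WT and at 832 and 847 CPM in Eko. Its groups did not overlap and its log2 fold change was -0.10 ± 0.07. The ratio of Myot to Flnc per kilobase held at 5.92 and 6.47 in WT and 6.15 and 6.27 in Eko, with overlapping groups. The ratio of Ky to Flnc was 0.892 and 0.897 in WT and 1.24 and 1.03 in Eko, both Eko mice lying above both WT mice. Igfn1 relative to Flnc was 0.143 and 0.0807 in WT and 0.0222 and 0.0257 in Eko, and the groups lay apart.

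Xirp1 encodes Xin, which binds filamin C, and lies on chromosome 9 (minus strand, 120013755 to 120023598), where the annotation has Cx3cr1 overlapping it on the same strand, so the authors' counting could split shared reads. Xirp1 was at 141 and 182 CPM in WT and at 121 and 176 CPM in Eko. The groups overlapped, and within each genotype the mice differed by 1.28-fold in WT and 1.46-fold in Eko. Its log2 fold change of -0.12 ± 0.19 turned to 0.14 without Eko replicate 1. Xirp2 codes for a larger Xin repeat protein of 3784 residues that binds actin, and lies on chromosome 2 (plus strand, 67446002 to 67526614). Xirp2 was at 5159 and 5441 CPM in WT and at 5058 and 5831 CPM in Eko. The groups overlapped, and the log2 fold change of 0.04 ± 0.10 turned to -0.07 without Eko replicate 2. The lower Eko mouse of Xirp1 was also the lower Eko mouse of Xirp2. The ratio of Xirp1 to Xirp2 per kilobase was 0.0562 and 0.0684 in WT and 0.0490 and 0.0621 in Eko, again with overlapping groups.

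The myomesins bridge myosin filaments and bind titin at the M-band. Myom1, the member found in all striated muscle, lies on chromosome 17 (plus strand, 71002633 to 71126856), where Myl12a lies on the opposite strand. Myom1 was at 1386 and 1349 CPM in WT and at 1288 and 1396 CPM in Eko. The Eko mice lay on either side of the WT mice, and the log2 fold change of -0.03 ± 0.08 turned to 0.04 without Eko replicate 1. Myom2 encodes M-protein, typical of fast fibres, and lies on chromosome 8 (plus strand, 15057653 to 15133541). Myom2 was at 1370 and 1263 CPM in WT and at 1152 and 1198 CPM in Eko. Both Eko mice lay below both WT mice, with a log2 fold change of -0.16 ± 0.08. The ratio of Myom2 to Myom1 per kilobase was 1.17 and 1.11 in WT and 1.06 and 1.01 in Eko.

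Myom3, the myomesin of slow and intermediate fibres, lies on chromosome 4 (plus strand, 135759715 to 135815564). Myom3 was at 38.0 and 37.0 CPM in WT and at 31.2 and 17.2 CPM in Eko. The WT mice were nearly equal, whereas the Eko mice differed by 1.82-fold, and both lay below WT. Its log2 fold change was -0.63 ± 0.24, with -1.11 without Eko replicate 1 and -0.27 without Eko replicate 2. The 9 slow-fibre markers summed to 435 and 985 CPM in WT and to 680 and 438 CPM in Eko, with all 9 overlapping between genotypes and none at 0. Among these markers Myh7, the slow myosin heavy chain, was at 113 and 339 CPM in WT and at 237 and 145 CPM in Eko. Within Eko the marker sum and Myom3 were both lower in replicate 2, while in WT the sum differed widely between mice whose Myom3 was level. The part of fibre type in the Myom3 difference was not tested.

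Titin, the giant spring of the sarcomere, is encoded by Ttn on chromosome 2 (minus strand, 76703980 to 76982547), with 347 exons in the longest coding transcript and 35213 residues. Ttn was at 18810 and 21229 CPM in WT and at 22486 and 24228 CPM in Eko. Both Eko mice lay above both WT mice, with a log2 fold change of 0.22 ± 0.10. Ttn alone held 1.86% and 2.15% of all counts in WT and 2.28% and 2.39% in Eko. Without Ttn the other 9 genes together took 1.00% and 1.03% in WT and 0.963% and 1.03% in Eko, an overlapping range. The ratio of Ttn to Myom1 per kilobase was 1.21 and 1.41 in WT and 1.56 and 1.55 in Eko. Ttn, Xirp2, Myom1 and Myom2 each overlap an annotated gene on the opposite strand, and the strand setting of the counting was not given in the sources used here, so the reads of such pairs cannot be told apart.

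**Figure D2:**
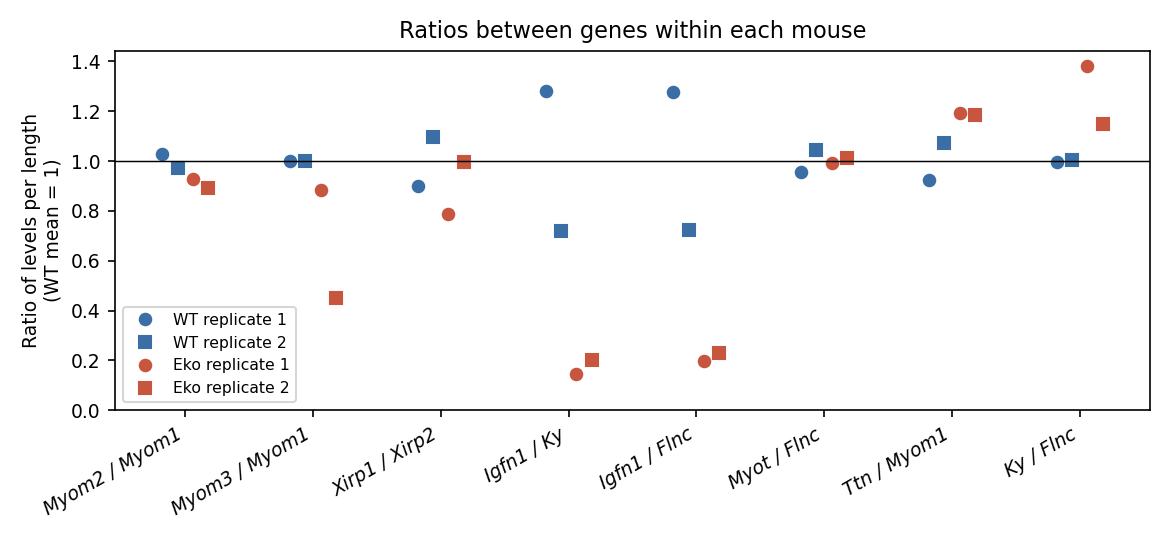
Ratios of levels per kilobase between gene pairs in each mouse (y axis, divided by the WT mean of that ratio). The Igfn1 ratios to Ky and Flnc sit far below 1 in both Eko mice, Myot to Flnc stays near 1 in all 4 mice, and Ttn to Myom1 and Ky to Flnc lie above both WT mice in Eko.

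Of the 10 genes, 5 had both Eko mice below both WT mice, 2 had both above and 3 overlapped. Groups of 2 failed to overlap in 43.8% of all genes tested, so a count of 7 in 10 was not read as a result. The median log2 fold change of the 10 genes was -0.11, beside -0.01 over all genes. The smallest p of an exact permutation test, two-sided with 2 mice per genotype, is 0.333.

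Levels were compared between genes per kilobase of exon, as the mean of 4 mice in CPM per kilobase. Xirp2 was the highest at 448, followed by Myot at 394, Ttn at 186, Myom2 at 141, Myom1 at 129.5, Ky at 64.2, Flnc at 63.7, Xirp1 at 26.5, Myom3 at 5.10 and Igfn1 at 4.49. The ranges over mice overlapped between the neighbours Myom2 and Myom1, Ky and Flnc, and Myom3 and Igfn1, and not between the other neighbours. When levels were scaled to a fixed sum of per-length levels in each mouse, as in TPM, the order was the same and Xirp2 and Myot overlapped as well, at 883 to 1093 and 843 to 916. With the length of the longest transcript in place of all exons, Myom2 at 245 and Myom1 at 240 CPM per kilobase moved above Ttn at 203. Flnc at 66.2 also moved above Ky at 64.7, with overlapping ranges. Igfn1 spanned 1.36 to 10.03 CPM per kilobase of exon over the mice, which placed it above Myom3 in WT replicate 1 and below it in the other 3 mice. By the WT means alone Igfn1 at 7.52 lay above Myom3 at 6.21, and Flnc at 66.1 above Ky at 59.2. The Eko means kept the order of the means of 4 mice.

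**Figure D3:**
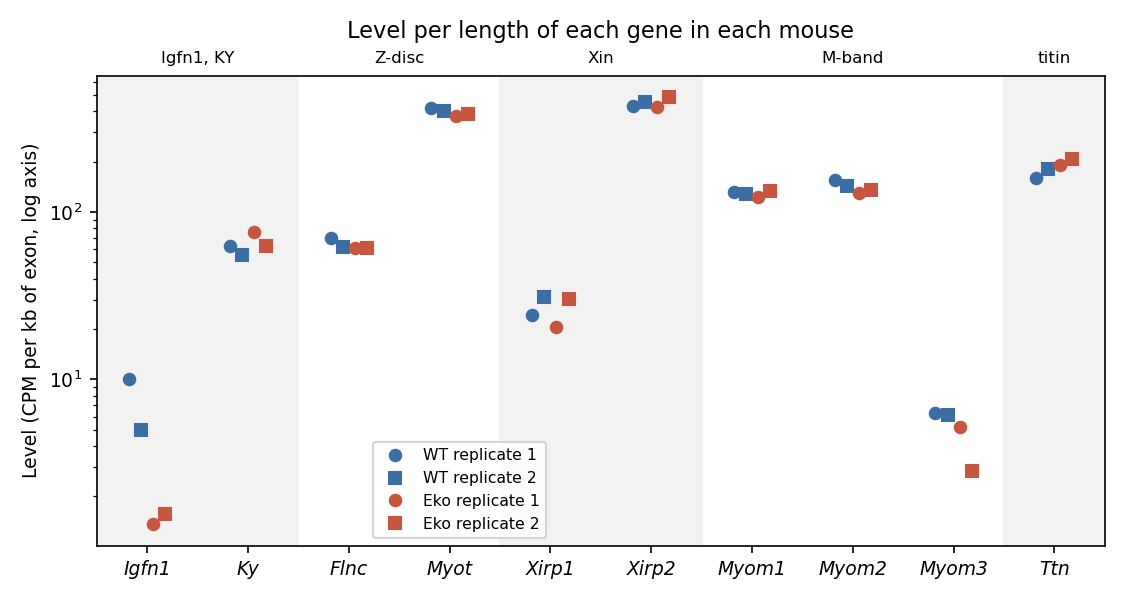
Level of each gene in each mouse in CPM per kilobase of exon (y axis, log scale), with WT in blue and Eko in red, grouped by the role of the protein. Igfn1 and Myom3 are the lowest of the 10 genes, and the Eko points of Igfn1 lie at 1.36 and 1.57.

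The mice of each genotype differed unequally across the genes. Between the WT mice Igfn1 differed by 2.00-fold, a gap reached by 0.825% of the 12128 genes with a mean of at least 1 CPM, whereas between the Eko mice it differed by 1.15-fold, reached by 23.9%. Myom3 had the opposite pattern, with a gap of 1.03-fold in WT, reached by 81.7%, and of 1.82-fold in Eko, reached by 1.14%. The median gene differed by 1.09-fold in WT and 1.07-fold in Eko. WT replicate 1, the mouse with the highest Igfn1, also had the highest sums of adipocyte and macrophage markers. The 7 adipocyte markers summed to 591 and 340 CPM in WT and to 354 and 509 CPM in Eko, with 2 of 7 below WT in both Eko mice and none at 0. From 86.2% to 97.7% of each sum was Car3, a carbonic anhydrase that muscle fibres also express, at 510 and 309 CPM in WT and 327 and 498 CPM in Eko. The other 6 markers, summed apart after these values were seen, came to 81.6 and 31.5 CPM in WT and 26.5 and 11.5 CPM in Eko. That sum was lower in both Eko mice than in both WT mice, as Igfn1 was, and all 6 of these markers were lowest in Eko replicate 2, where Igfn1 was not. Its largest part in each mouse was Cfd, at 48.5 and 16.9 CPM in WT and 8.61 and 5.72 CPM in Eko. Retn also lay below WT in both Eko mice, whereas Adipoq, Plin1, Cidec and Lep each overlapped between genotypes. The median log2 fold change of the 7 markers was -1.08, and none passed the adjusted threshold. The 5 macrophage markers summed to 38.5 and 29.3 CPM in WT and 25.1 and 19.8 CPM in Eko, with 3 of 5 below WT in both Eko mice. In the same edgeR test 3 of the 5 had an unadjusted p under 0.05. The marker lists were chosen with earlier results of these data known, so these counts are not read as a result. The part of adipocytes and macrophages in the Igfn1 difference was not tested.

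**Figure D4:**
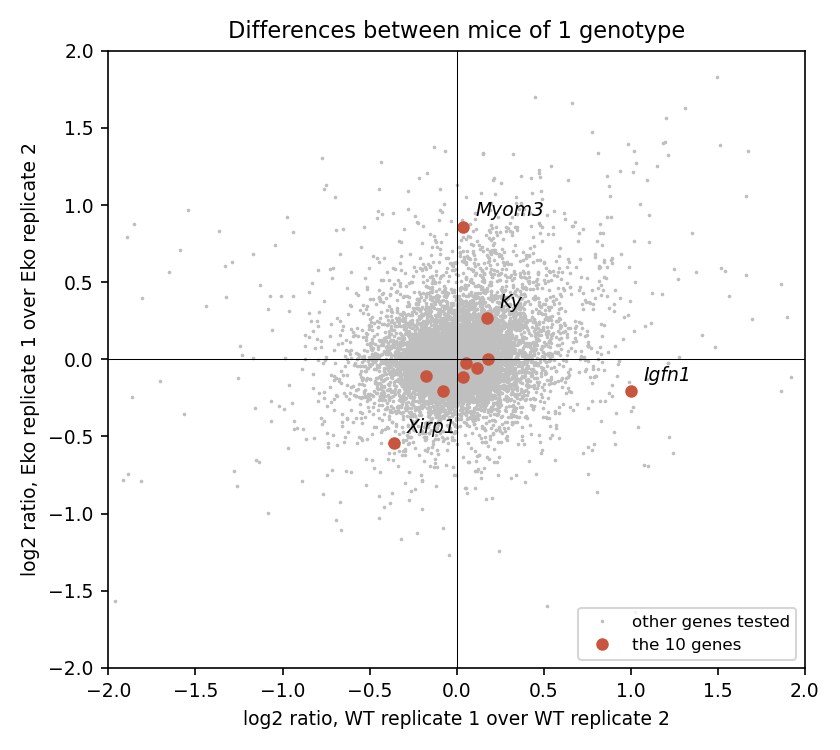
Log2 ratio between the 2 Eko mice (y axis) against the log2 ratio between the 2 WT mice (x axis) for the 10 genes in red and all genes of at least 1 CPM in grey, with 13 genes outside the axes. Igfn1 lies far to the right near the horizontal line and Myom3 far up near the vertical line.

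**Figure D5:**
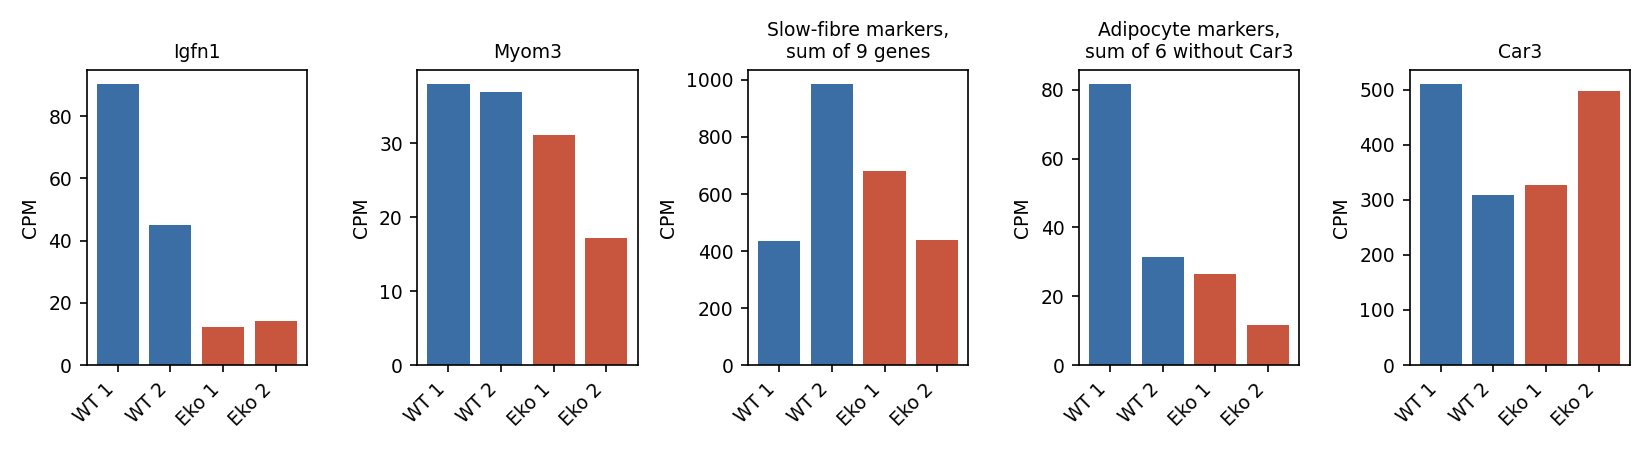
CPM of Igfn1, of Myom3, of the summed slow-fibre markers, of 6 summed adipocyte markers and of Car3 in each mouse (bars from 0, WT in blue and Eko in red). The slow-fibre sum is highest in WT replicate 2, the sum of 6 adipocyte markers is highest in WT replicate 1 and lowest in Eko replicate 2, and Car3 overlaps between genotypes.

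The genes whose levels over the 4 mice followed Igfn1 most closely were ranked by the root mean squared distance of centred log2 CPM over 12127 genes. Cyp2e1, a cytochrome P450, came first at 0.327, with 19.2 and 5.06 CPM in WT and 1.93 and 2.08 CPM in Eko. Inpp5j, an inositol polyphosphate phosphatase, followed at 0.346, with 3.87 and 2.87 CPM in WT and 1.03 and 0.853 CPM in Eko. Cfd, the adipocyte protease adipsin, was at 0.358, with 48.5 and 16.9 CPM in WT and 8.61 and 5.72 CPM in Eko. In Cyp2e1 and Cfd, as in Igfn1, WT replicate 1 lay well above WT replicate 2. Slc47a1, a transporter, stood at a distance of 0.363 and Gm10851 at 0.389. The closest of the other 9 genes was Myom3, at a distance of 0.94 and rank 252, and the farthest was Ttn at rank 11013.

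Other genes of the M-band and of titin were 20, in a list chosen, like the next one, with earlier results of these data known. The counts and shares of both lists are therefore not read as a result. Of the 20, 0 were called at an adjusted p under 0.05 in edgeR's quasi-likelihood test, against 0.416% of all genes tested. In the same test 6 had an unadjusted p under 0.05 (30% of the list, beside 11.6% of all genes tested). DESeq2 also called 0, against 318 of all 16120 genes. The log2 fold changes of the 20 genes ran from -0.92 to 0.21 with a median of -0.09. The most abundant per length were Ckm, the muscle creatine kinase bound to the M-band, Tcap, the titin cap, and Ankrd23, a titin-binding ankyrin repeat protein. The log2 fold changes of these were 0.00, 0.07 and -0.24, with adjusted p of 0.996, 0.773 and 0.374 in edgeR's quasi-likelihood test. Other genes of the Z-disc and of filamin C were 30, of which 1 fell and 0 rose in the edgeR test, against 0.310% of all genes tested with lower counts, and the median log2 fold change was -0.02. In this list 10 had an unadjusted p under 0.05 in that test (33.3% of the list). DESeq2 called 5, namely Actn2, Myoz2, Bag3, Hspb1 and Hspb8, all lower in Eko. Over all 16120 genes DESeq2 called 318, of which 186 were lower and 132 higher. The gene that fell in the edgeR test was Bag3, the co-chaperone that removes damaged filamin C. Bag3 was at 183 and 176 CPM in WT and at 125 and 131 CPM in Eko, and the groups lay apart. Its log2 fold change was -0.49 ± 0.07 (adjusted p = 0.0480, edgeR quasi-likelihood, Benjamini-Hochberg adjusted), and the call was lost with relative log expression scaling, with a minimum of 1 CPM in 2 libraries, and without WT replicate 1 or Eko replicate 1. The most abundant of this list were Actn3, the fast-fibre α-actinin, Mybpc2, the fast myosin-binding protein C, and the intermediate filament gene Des. Their log2 fold changes were 0.17, -0.07 and -0.03, with adjusted p of 0.501, 0.789 and 0.924 in the same edgeR test.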

How the data were processed

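Quadriceps polyA RNA of 2 WT and 2 Eko mice was sequenced with a stranded kit, 1 library per mouse. The authors aligned reads with STAR 2.6.1a to mm10 (GRCm38) and deposited expected counts per gene from RSEM; all deposited values were whole. The strand setting of counting was not given in the sources used here. Counts were scaled by TMM, filtered with filterByExpr and tested for genotype with edgeR 4.0.16 in R 4.3.3, with Benjamini-Hochberg adjustment over 16120 genes at 0.05. DESeq2 1.42.0 and other settings were alternatives. Replicates were separate mice. The mice were littermates per the study, but no source ties a library number to a litter, so no pairing entered. Symbols were matched to GENCODE M21, with a unique gene for 91.8% of rows. The 10 genes, the gene lists and the marker lists were chosen with earlier results of these data known. Named genes were all 10, called and 3 most abundant list genes, and the 5 genes most like Igfn1. The scripts were tested on simulated data.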

Additional observations from a re-analysis of the deposited data

How the results depend on the processing

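With 2 mice per genotype, counts of calls moved with the processing. The number of genes called was 67, and 318 with DESeq2, 312 with the likelihood ratio test, 799 without a filter on low counts, 23 with a minimum of 1 CPM in 2 libraries, and 99 to 299 when each mouse was left out in turn. Of the 10 genes, 1 was called, 2 without a filter (Igfn1 and Myom3), 0 with the minimum of 1 CPM, and 1 to 2 when each mouse was left out (Myom3 was added without Eko replicate 1). In the M-band and titin list, 0 were called, 1 with the likelihood ratio test, 4 without a filter and 0 to 2 when each mouse was left out. In the Z-disc and filamin C list, 1 was called, 5 with DESeq2, 4 with the likelihood ratio test, 0 with relative log expression scaling, 6 without a filter, 0 with the minimum of 1 CPM and 1 to 4 when each mouse was left out. A replicate block on the library number gave 186 genes called, 1 in the M-band and titin list, 5 in the Z-disc and filamin C list and Igfn1 of the 10 genes. The deviations of same-numbered mice had a correlation of 0.253 across 12128 genes, and with 2 pairs and no litter given per mouse the number is not shown to pair the littermates. Of 110 fold changes of the 10 genes under alternatives, 104 moved by less than the spread between replicates and 6 by more. The cause of these shifts was not tested.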
